A study of Caenorhabditis elegans with 4 samples.

Results

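Chromosome II peaks were taken from 3 deposited peak lists of a control IgG experiment in the nematode Caenorhabditis elegans, by chromosome name alone. Chromosome II held 33 peaks of replicate 1, 133 of replicate 2 and 127 of the combined list, together 293 of the 1773 peaks in all. The study carried out ChIP-seq (chromatin immunoprecipitation followed by sequencing) on mixed-stage embryos of N2, the wild-type laboratory strain. The embryos came from a mixed male and hermaphrodite population and were released from gravid adults grown in liquid culture, then fixed with 2% formaldehyde. The antibody in both IgG libraries was AB46540 NIgG, a rabbit polyclonal control with no intended target in the worm, described in the labels as raised against mouse IgG. The 2 matching input DNA libraries were not analysed here. Coordinates are in WormBase build WS220, 1-based, as the authors' files give them.

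A control IgG library records which chromatin fragments are recovered without a specific antigen, and it is used as the background for ChIP with specific antibodies. Regions that appear repeatedly in such controls are often masked before peaks of a transcription factor or a histone mark are read. Autosomes of C. elegans are known for gene-dense, rarely recombining centres and for arms that recombine more and are rich in repeats. The chromosomes are holocentric, so no single centromere divides the arms. The gene table at hand describes another build than the peak lists, and no genome of their build was at hand, so no gene is named at any peak and no sequence is printed.

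A single peak list stands for each library, read depth is unknown, and no label ties the replicates to separate cultures. The tests below therefore take peaks as units and describe these lists, not the variation between cultures. They treat peaks as independent, which neighbouring peaks are not. The combined list bears the series title without a replicate number and was read as the IgG libraries pooled. It is thus not independent of the replicate lists, and presence in it or a test on it adds no library. The labels name more than 1 sequencing instrument and site without tying them to libraries, so no batch could be formed. Replicate 1 held fewer peaks than replicate 2 on every nuclear chromosome, so a peak missing from replicate 1 cannot be read as missing signal. Within replicate 1, chromosome II held the most peaks per Mb, 2.17 against 0.945 to 1.77 on the others. Peaks covered 0.161% of its extent there, within the range of the others (0.0807 to 0.187%). In replicate 2 its 8.75 peaks per Mb stood below chromosomes III (9.89) and IV (9.49). Its covered share in that list, 0.579%, was the lowest (others 0.639 to 0.761%). In the combined list it had 8.36 peaks per Mb, within the range of the others (7.01 to 9.09). In replicate 1 chromosome II took 21.6% of the 153 peaks (exact Clopper-Pearson 95% interval 15.3 to 28.9%), beside 15.2% of the summed nuclear extent. In replicate 2 it took 16.9% (14.3 to 19.7%) and in the combined list 15.4% (13.0 to 18.0%). No test was made of these shares.

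The left section of chromosome II held the most peaks in each list, and the central section the fewest. The extent was taken up to the highest peak end, 15191652, and its 3 equal sections met at 5063884 and 10127768. In replicate 1, 16 peaks lay in the left section, 3 in the central and 14 in the right. In replicate 2 the counts were 69, 29 and 35, and in the combined list 61, 24 and 42. The left section thus held 48.5%, 51.9% and 48.0% of the peaks, while on the other nuclear chromosomes pooled it held 28.3%, 37.5% and 36.5%. Chromosome X stood above chromosome II there in replicate 2 (56.5%) and in the combined list (50.3%). The right section differed between the lists, at 42.4% in replicate 1 and 26.3% in replicate 2. These arm values are descriptions.

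**Figure D1:**
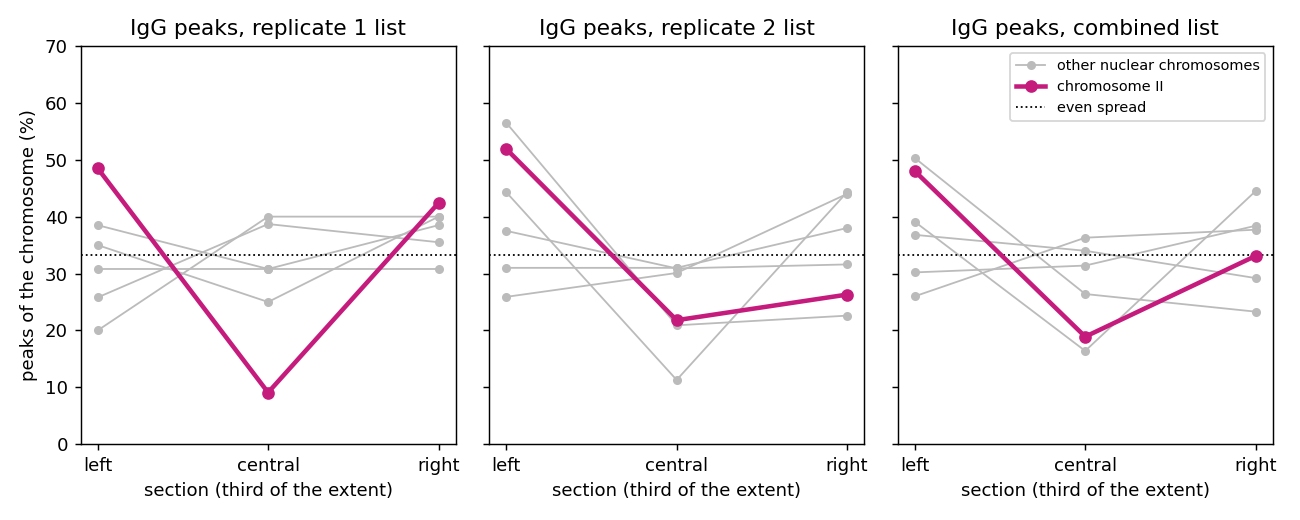
Percentage of a chromosome's IgG peaks in the left, central and right of 3 equal sections of its extent, in the replicate 1, replicate 2 and combined lists. Chromosome II is the thick line, each of the other 5 nuclear chromosomes a thin grey line, and the dotted line an even spread; on chromosome II the central value is 9.09%, 21.8% and 18.9%.

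Set against the rest of the nuclear genome, the central share of chromosome II was lower in replicate 1 and in the combined list, and not distinguishable from it in replicate 2. In replicate 1 the central share was 9.09% (95% interval 1.92 to 24.3%), while the other 5 nuclear chromosomes held 34.2% there. The difference was -25.1 percentage points (95% interval -35.7 to -8.59, two-sided Fisher's exact test, adjusted p = 0.013 over the 3 lists). In the combined list the share was 18.9% (12.5 to 26.8%) against 28.9%, a difference of -10.0 points (-16.9 to -1.70, exact test, adjusted p = 0.034). In replicate 2 it was 21.8% (15.1 to 29.8%) against 26.1%, a difference of -4.26 points (-11.4 to 4.13, exact test, adjusted p = 0.33).

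The combined call depended on how clustered peaks were counted, and the replicate 1 call did not. The combined difference was -5.54 points and no longer passed when each dense run was counted once (exact test, adjusted p = 0.41), and it was -7.89 without the 13-peak run of chromosome II (exact test, adjusted p = 0.14). For replicate 1 the difference was -25.5 points with runs counted once (exact test, adjusted p = 0.031) and -23.8 without its own run of most peaks (exact test, adjusted p = 0.036). Among peaks scoring no less than their list's median, the difference was -25.1 points in replicate 1, over 20 chromosome II peaks, and -12.7 in the combined list, and neither passed (both adjusted p = 0.070, exact test). With a wider central section of 50% of the extent, replicate 1 gave -21.1 points and did not pass (adjusted p = 0.070, exact test). With the 6 chromosomes as units, chromosome II had the lowest central share in replicate 1, the second lowest in the combined list and the third lowest in replicate 2. The two-sided exact permutation test over chromosomes gave p = 0.167, 0.500 and 1.00 in that order, and 0.167 is the smallest p that 6 chromosomes allow. The low central share was known from an earlier reading of these lists, so it is not independent evidence. Nor is the combined call independent of the replicate calls, because that list was read as pooled from the same libraries.

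In replicate 1 the 3 longest peak-free intervals of chromosome II lay in or reached into its centre. They ran from 7894998 to 10033510 (2138511 bp), from 6186473 to 7894815 (1708341 bp) and from 4701747 to 6185257 (1483509 bp). Long gaps are not peculiar to chromosome II: the longest of replicate 1 elsewhere ran from 1665616 bp on chromosome V to 5540602 bp on chromosome III. Only 3 replicate 1 peaks stood in the central section of chromosome II, at 6185257 (score 610.48), 7894815 (52.42) and 10033510 (80.55). Each of them overlapped a peak of both other lists. In replicate 2 the longest gap, 938601 bp from 6508635 to 7447237, was central, but the next, 922201 bp from 11827457 to 12749659, lay wholly in the right section. The longest gap of the combined list was again central, 875363 bp from 6571896 to 7447260. The central peaks of replicate 2 had a median score of 124.4, against 99.25 in the left and 106.8 in the right section. In the other lists the right section had the highest median instead. From left to right the medians were 72.31, 80.55 and 94.62 in replicate 1, and 3.80, 3.93 and 4.785 in the combined list.

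Counted in windows of 1 Mb from the left end, the fullest window of replicate 2 and of the combined list was the one from 3 to 4 Mb, with 21 and 25 peaks. Replicate 1 had 6 peaks there. Its own fullest window was the one from 13 to 14 Mb, with 8 peaks, where replicate 2 had 9 and the combined list 16. Between 8 and 10 Mb replicate 1 had 0 peaks, while replicate 2 had 5 and 11 in those 2 windows and the combined list 6 and 2.

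Neighbouring peaks of chromosome II were separated by a median of 221 kb in replicate 1, the shortest of the 6 nuclear chromosomes, where the others ran from 225 to 634 kb. In the combined list the median gap of chromosome II was 54.3 kb, the longest of the 6, with the others between 0.699 and 36.6 kb. In replicate 2 it was 30.2 kb, within the range of the others (3.09 to 48.1 kb). These medians were not tested.

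**Figure D2:**
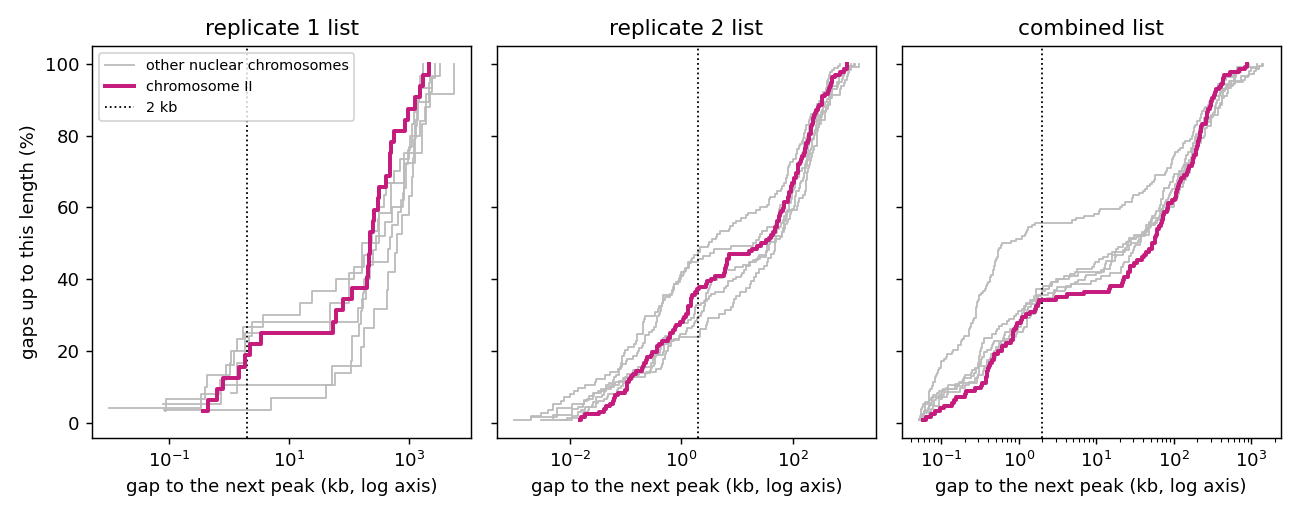
Cumulative percentage of gaps between neighbouring IgG peaks up to a given length (kb, log axis) in each list, with chromosome II as the thick line and each other nuclear chromosome as a thin grey line. The dotted line marks 2 kb, the largest gap within a dense run; the median gap on chromosome II is 221 kb in replicate 1, 30.2 kb in replicate 2 and 54.3 kb in the combined list.

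Joining the 3 lists wherever peaks shared at least 1 bp gave 178 separate loci on chromosome II. Of these, 23 were present in all 3 lists (12.9%), 12 of them in the left section, 3 in the central and 8 in the right. A further 44 loci (24.7%) were in replicate 2 and the combined list, 7 (3.93%) in replicate 1 and the combined list, and 1 in the replicates only. The remaining loci belonged to 1 list each, 63 to replicate 2 (35.4%), 38 to the combined list (21.3%) and 2 to replicate 1 (1.12%). Loci in all 3 lists spanned 332 to 2747 bp, with a median of 637 bp, and were a median of 282301 bp apart. Loci were joined on chromosome II only. Their shares thus have no background and are not read as particular to this chromosome. Presence in the combined list beside the replicate lists adds no further library to a locus.

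Sharing between the replicates on chromosome II was not distinguishable from that elsewhere. Replicate 2 covered 24 of the 33 replicate 1 peaks at least in part, 72.7% (54.5 to 86.7%), beside a background of 75.0% on the other nuclear chromosomes. The difference was -2.27 points (95% interval -20.6 to 12.6, exact test, adjusted p = 0.90). From the side of replicate 2, 26 of 133 peaks overlapped replicate 1, 19.5% (13.2 to 27.3%) against a background of 14.9%. That was the highest value of the 6 chromosomes, yet the difference of 4.61 points did not pass (-1.93 to 12.6, exact test, adjusted p = 0.58). In the combined list, 25 of 127 peaks overlapped both replicates, 19.7% (13.2 to 27.7%), where the background was 19.1% (difference 0.631 points, -6.10 to 8.86, exact test, adjusted p = 0.90). The intervals are wide, so these values do not show that the shares are alike.

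**Figure D3:**
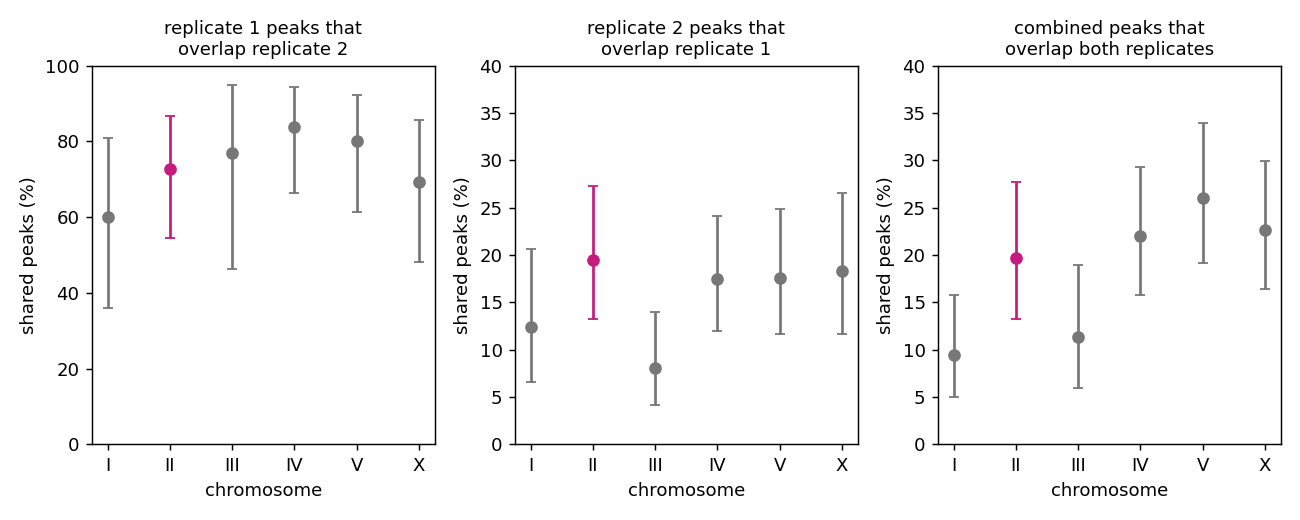
Percentage of IgG peaks on each nuclear chromosome that overlap the other replicate list (left and middle) or both replicate lists (right), with exact Clopper-Pearson 95% intervals; the vertical scale differs between panels. Chromosome II, in colour, stands at 72.7%, 19.5% and 19.7%, within the range of the other chromosomes in the left and right panels and highest in the middle one.

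In bases, the replicate lists shared 17491 bp of chromosome II. These made up 71.7% of the length that replicate 1 covered, and 19.9% for replicate 2. On the other nuclear chromosomes the values were 84.7% and 18.4%. By section, the counts of shared peaks were small. In replicate 1, 13 of 16 left peaks, 3 of 3 central and 8 of 14 right peaks overlapped replicate 2. In replicate 2, 15 of 69 left, 3 of 29 central and 8 of 35 right peaks overlapped replicate 1. Counting only peaks that overlapped both other lists, replicate 1 had 12 left, 3 central and 8 right on chromosome II. On the other nuclear chromosomes it had 26 of 34, 26 of 41 and 26 of 45. For replicate 2 the counts were 13, 3 and 8 on chromosome II, and 28 of 246, 28 of 171 and 29 of 239 elsewhere. These sections were not tested against each other.

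The best defined locus of chromosome II lay in the central section at 6185257 to 6186473 in replicate 1. Its score of 610.48 was the highest of the chromosome in that list and the second highest of the whole list. In replicate 2 the same locus ran from 6185258 to 6186480 with a score of 596.44, the sixth on the chromosome. The 2 starts differed by 1 bp and the 2 ends by 7 bp. The combined peak, 6185234 to 6186422, scored 16.34 and ranked second on the chromosome. Scores are on scales of their own in each list, so only ranks within a list can be read across.

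The right section held the next 2 replicate 1 peaks by score. One lay at 13939838 to 13941420 (score 305.57) and matched a replicate 2 peak at 13939866 to 13941408 (406.73), so that the edges differed by 28 and 12 bp. The other lay at 13598515 to 13599928 (229.03) and matched 13598596 to 13599925 in replicate 2, where its score of 761.96 was the fourth on the chromosome. Both stood lower in the combined list, at 5.47 (rank 30) and 5.20 (rank 34). The combined peak at 13939955 to 13941339 was nevertheless the widest of chromosome II in that list, at 1385 bp.

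The highest combined score of chromosome II, 20.57, belonged to a narrow peak of 246 bp at 10248306 to 10248551, just inside the right section. It overlapped a 319 bp peak in replicate 1 (score 95.36, rank 13) and a 302 bp peak in replicate 2 (127.63, rank 54). Further right, combined peaks at 11759187 (15.57) and 11534487 (13.75) also overlapped both replicates. In the left section the strongest combined peak in both lists was at 1250440 to 1251301, with a score of 11.07. It matched 1 replicate 1 peak (188.12) and a pair of replicate 2 peaks (142.38 and 207.09), and a second shared locus began 1804 bp to its right at 1253106 (9.10).

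The remaining combined peaks found in both replicates were spread over the whole chromosome. On the left they began at 4701522 (9.0), 2632303 (5.86), 3943915 (5.53), 4207533 (5.00), 3161802 (4.39), 3466621 (4.07), 3944390 (3.96), 3945402 (3.8), 1451972 (3.55), 3106670 (3.23), 695088 (2.38) and 3467531 (1.43). In the centre they began at 10033502 (10.64) and 7894682 (7.20), and on the right at 13817757 (9.90), 13826969 (5.62) and 13819959 (5.05). The lowest of these values, 1.43, was also the lowest combined score of the chromosome. That peak lay inside a 2747 bp replicate 1 peak and a 2503 bp replicate 2 peak, which also held the combined peak at 3466621. The next lowest, 2.38 at 695088, ranked 114 on the chromosome, so presence in both replicates did not require a high combined score.

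Edges were compared for the 22 loci at which exactly 1 replicate 1 peak met exactly 1 replicate 2 peak. Starts differed by 1 to 500 bp with a median of 75 bp, and ends by 3 to 621 bp with a median of 46.5 bp. Both edges lay within 100 bp of each other at 14 of the 22 loci, and within 50 bp at 6. The shared part made up 45.2 to 99.3% of the joint span, with a median of 81.2%. The largest offsets, 500 and 621 bp, were at 1450867 to 1453031 in replicate 1, a 2165 bp peak with a score of 50.93, the lowest of the chromosome in that list. Replicate 2 covered only 1044 bp of it.

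Several of the strongest replicate 2 peaks of chromosome II had no counterpart in replicate 1, as on the other chromosomes. Among the 10 top scores of replicate 2 on chromosome II, 3 lay at a replicate 1 peak, while 8 of the 10 top scores of replicate 1 lay at a replicate 2 peak. The other nuclear chromosomes had 1 to 5 and 6 to 10, so both counts lay within their range. The largest was a 4524 bp peak in the central section at 8288313 to 8292836. Its score of 3100 is shared by 7 peaks of the list, so its rank among those is undefined. Replicate 1 had no peak within the long gap that holds it, and the combined list had 4 peaks inside it, with scores between 3.60 and 4.54.

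The second was a 2502 bp peak in the right section at 12843664 to 12846165, with a score of 1838.37. It held 1 combined peak, 12844850 to 12846007 (6.31), and no replicate 1 peak. The third, at 5144937 to 5146797 at the left edge of the central section, scored 895.70 over 1861 bp. It held a pair of combined peaks with scores of 2.33 and 4.87. In the left section, a nearly continuous block of 3 replicate 2 peaks ran from 4641174 to 4645167 with scores of 480.80, 452.41 and 292.58. Replicate 1 had no peak there, and the combined list had 2 narrow ones at 3.35 and 3.56.

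The top combined peaks of chromosome II were compared with both replicate lists. Of the 10 highest scoring combined peaks, 9 overlapped a replicate 1 peak and 7 a replicate 2 peak, 6 of them both. Of all 127 combined peaks of chromosome II, 95 lacked a replicate 1 peak, 45 lacked a replicate 2 peak and 25 (19.7%) overlapped both. The replicate 2 count among the top 10 thus lay near the share over all peaks. These top 10 counts were made on chromosome II only. Among the 10 highest replicate 1 peaks, 5 held a combined peak that was itself among the top 10, and among the 10 highest replicate 2 peaks 1 did. The same count was 1 to 6 for replicate 1 and 1 to 2 for replicate 2 over the other nuclear chromosomes. These counts were chosen after the values were seen, with no test. MACS is named as the source of both replicate lists and MACS v2 as that of the combined list; whether the ranks depend on the version was not tested.

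**Figure D4:**
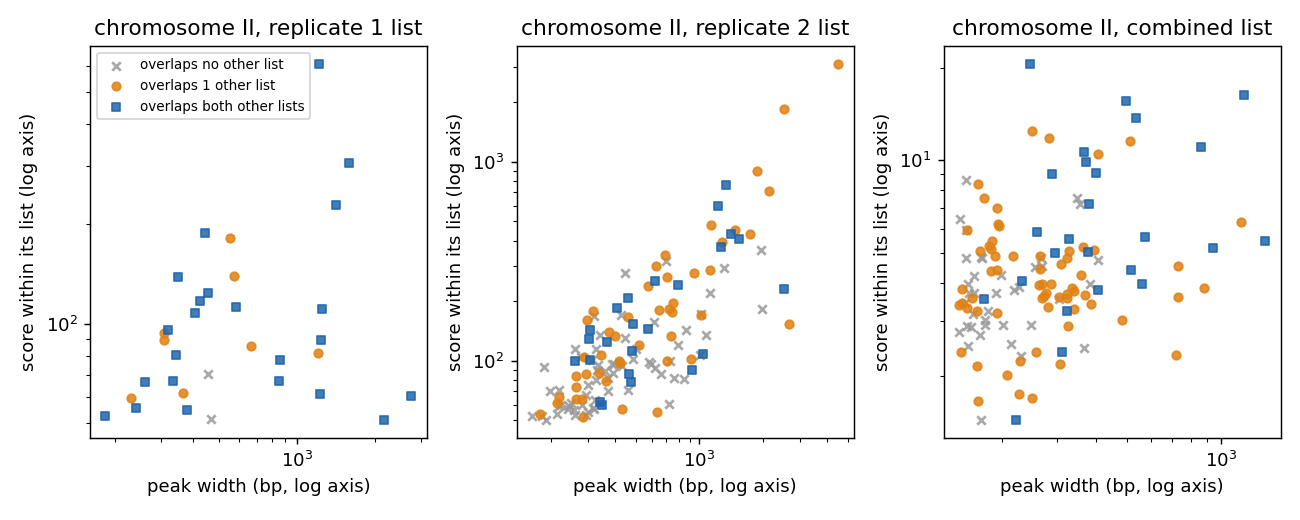
Score against width (both log axes) for the chromosome II peaks of each list, marked by whether a peak overlaps none, 1 or both of the other lists. Scores of different lists are on different scales; in replicate 2 the widest peak, 4524 bp, also has the highest score, 3100, and overlaps 1 other list.

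Replicate 1 had 9 peaks on chromosome II that replicate 2 lacked, and all are given here after their values were seen. The strongest was at 2378430 to 2378982, with a score of 181.75, the fifth on the chromosome in replicate 1. The nearest replicate 2 peak was 191325 bp away, yet the combined list had a peak at 2378404 to 2378917 with a score of 11.51, its seventh. A similar case was 11967532 to 11967839 (93.87), with a combined peak of 11.81 and no replicate 2 peak within 140074 bp. The peak at 10563332 to 10563695 (61.86) matched a combined peak of 8.38, and the one at 14019597 to 14019906 (89.18) a combined peak of 3.93.

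A pair within the right-hand dense run, at 13821088 (85.37) and 13823196 (138.78), lay 740 and 2848 bp from the nearest replicate 2 peak. The peak at 1514267 (59.71) had a combined peak of 2.23 and a replicate 2 peak 988 bp away. The last 2, at 13191844 (70.20) and 3465294 (51.47), were in no other list. Thus 7 of the 9 had a combined peak. In the right section 6 of 14 replicate 1 peaks lacked a replicate 2 peak, in the left section 3 of 16. These counts are small, and the sections were not tested against each other.

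In the combined list, 38 of the 127 peaks of chromosome II overlapped neither replicate list, 29.9% (22.1 to 38.7%), and on the other nuclear chromosomes 33.5% did. They were narrow: the median was 177 bp, near the narrowest width of the list, 146 bp, and it was 377 bp for peaks in both replicates. Elsewhere the same medians were 183 and 371 bp, and whether overlap follows from width was not tested. On chromosome II their median score was 3.71, beside 5.53 for peaks in both, 8.38 for the 7 in replicate 1 alone and 3.75 for those in replicate 2 alone. On the other nuclear chromosomes the median scores were 3.79, 5.65, 5.53 and 3.955 in that order. The strongest of them was at 1851825 to 1851977 (8.61), followed by 5346461 to 5346806 (7.55) and 7517023 to 7517377 (7.20). In replicate 2, 63 of 133 peaks overlapped neither other list, 47.4% (38.7 to 56.2%), and on the other nuclear chromosomes 55.2% did. The strongest of these, at 14337320 to 14339276, scored 359.92 over 1957 bp, and the next, at 4259942 to 4260639, scored 315.33.

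About as many combined as replicate 2 peaks stood in dense runs, here 2 or more peaks of a list with gaps of at most 2 kb. In replicate 2, 72 of 133 peaks (54.1%, 45.3 to 62.8%) formed 23 runs, and in the combined list 64 of 127 (50.4%, 41.4 to 59.4%) formed 21. In replicate 1, 10 of 33 (30.3%, 15.6 to 48.7%) formed 4. On the other nuclear chromosomes the shares were 51.7%, 56.0% and 26.7% for replicate 2, combined and replicate 1. Most runs were pairs, 15 of the 23 in replicate 2 and 15 of the 21 in the combined list. The left section held 11 replicate 2 runs, the central 5 and the right 7.

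The run with the most peaks, in replicate 2 and in the combined list, lay in the left section. In replicate 2 it ran from 3159594 to 3168539, with 9 peaks covering 7390 of 8946 bp. Scores reached 711.89 at 3163141 to 3165267 and 433.79 at 3165789 to 3167520. The combined list divided the same stretch into 13 peaks between 3159892 and 3168176 that covered 3641 bp. Their scores ran from 1.74 to 7.02, and the highest ranked 20 on the chromosome in that list. Replicate 1 had 1 peak there, 3161687 to 3162541 (67.02), whose start lay 3 bp from that of a replicate 2 peak.

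A second run of the left section was found in each replicate list and in the combined list, which was read as the same libraries pooled. Replicate 2 had 6 peaks between 3939890 and 3946562, with scores of 57.10 to 430.89, and the combined list had 4 between 3942449 and 3945806. Replicate 1 had its own run of 2 there, 3943775 to 3945006 (88.90) and 3945364 to 3946588 (61.06). Both replicate 1 peaks matched the 2 rightmost replicate 2 peaks with edges less than 100 bp apart. Nearer the left end, a run of 6 weak replicate 2 peaks (56.87 to 95.97) spanned 694320 to 699020, where replicate 1 had a single peak of 1246 bp (110.35), its leftmost on the chromosome.

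The right-hand run held more peaks of replicate 1 than of replicate 2. Replicate 1 had a run of 4 peaks from 13817646 to 13823768 and a further peak at 13827159, with scores between 54.91 and 138.78. Replicate 2 had peaks at only 3 of the 5 places, with scores of 59.61, 61.97 and 143.68. The combined list had a run of 7 peaks from 13817757 to 13827541, of which the peak at 13823341 (10.46) was among its 10 highest on the chromosome. A pair of these 7 overlapped neither replicate list, at 13819511 (2.92) and 13824973 (4.74).

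The opposite case lay in the central section. Replicate 2 had a run of 8 peaks from 9808019 to 9820795, with scores of 57.50 to 171.63 and 6239 bp covered. Neither replicate 1 nor the combined list had a single peak in it. It holds 8 of the 29 central peaks of replicate 2. Of the 23 replicate 2 runs, those with no combined peak otherwise held 2 peaks each.

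**Figure D5:**
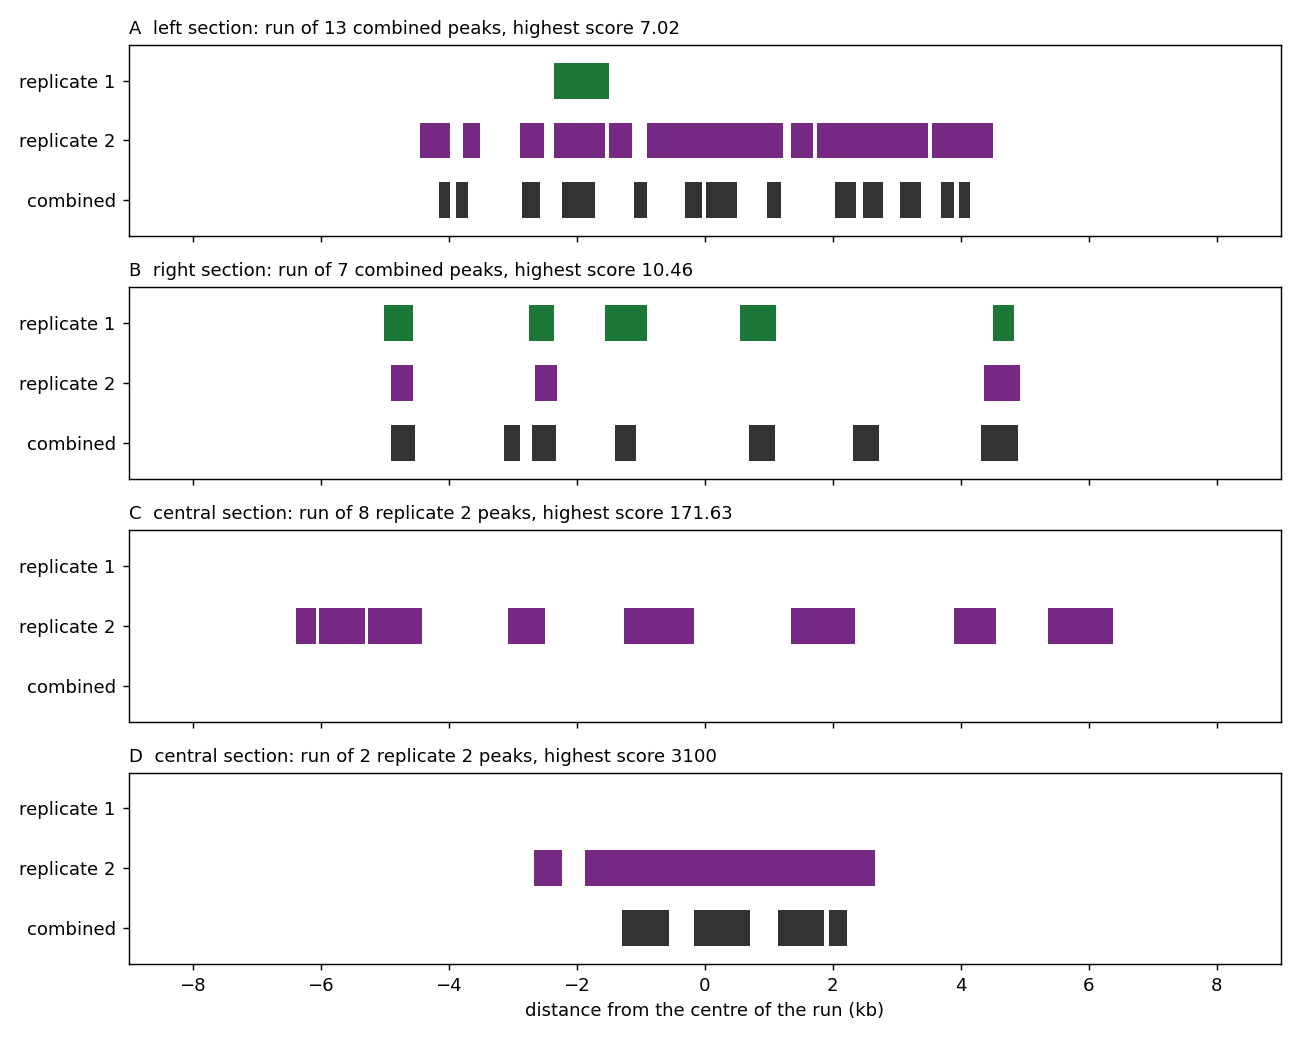
Extents of the chromosome II peaks of the 3 lists around 4 dense runs, as distance from the centre of the run (kb): the 13-peak combined run (A), the right-hand run of 7 combined peaks (B), the run of 8 replicate 2 peaks (C) and the run holding the score of 3100 (D). Replicate 1 has 1 peak in A, 5 in B and 0 in C and D; the combined list has none in C.

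Chromosome II peaks were narrower at the median than those elsewhere in both replicate lists and wider in the combined list, but in each list the median elsewhere lay inside the interval of the chromosome II median. Replicate 1 peaks had a median width of 457 bp (order-statistic 95% interval 364 to 855 bp) and the other nuclear chromosomes 543 bp. In replicate 2 the medians were 431 bp (370 to 521) and 479.5 bp, and in the combined list 257 bp (218 to 282) and 223 bp. Taken singly, the other chromosomes ran from 421.5 to 961 bp in replicate 1 and from 408.5 to 562 bp in replicate 2. Chromosome II lay within both of these ranges. The combined median was the widest of the 6 chromosomes, where the others ran from 207 to 241 bp, but the quartiles, 176 and 350.5 bp, overlapped widely with theirs. These widths were not tested.

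In the replicate lists, peaks over 1000 bp made up much of the covered length. In replicate 1, 9 of 33 peaks were over 1000 bp and held 57.5% of the covered bases, and in replicate 2, 25 of 133 held 46.9%. As shares of peaks these were 27.3% and 18.8%, beside 24.2% and 22.7% on the other nuclear chromosomes. In the combined list 3 were that wide (2.36%, elsewhere 3.15%), at 13939955, 6185234 and 12844850, and they held 9.45% of the covered bases. Shares of covered bases were taken on chromosome II only and have no background. The widest replicate 1 peak, 3466200 to 3468946, measured 2747 bp and had a score of 60.58, rank 27 of 33 on the chromosome in its list. The replicate 2 peak there measured 2503 bp with 229.32, rank 26 of 133. In replicate 2, the higher scoring peaks, from the list median upwards, had a median width of 713.5 bp and the lower scoring ones 323 bp. In the combined list the same medians were 275 and 228 bp.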

How the data were processed

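ChIP-seq peak lists were read for 2 IgG libraries and for the series as a whole, taken as these libraries pooled. Per the file headers and source fields, the authors deposited MACS (replicates) and MACS v2 (combined) peaks in WS220, each with a score whose scale is not named. Aligner, control and calling threshold were not given in the sources at hand. Scores were used within 1 list only.

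Overlap meant at least 1 bp, 3 equal sections of the extent were assigned by peak midpoint, and dense runs had gaps of at most 2 kb. Chromosome II was compared with the other 5 nuclear chromosomes by two-sided Fisher's exact tests, adjusted by Benjamini-Hochberg over the 3 lists, with Newcombe intervals of the difference. Code was tested on simulated data. Python 3.11.15, SciPy 1.17.1 and statsmodels 0.14.6 were used.

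Regions were named as combined peaks in both replicates, the 10 highest, 3 widest and outermost peaks of each list, the 5 highest unshared peaks, and runs of at least 4. Members, tests and this rule were chosen with earlier results of these data known. The 6 mitochondrial peaks were left out. Intervals cover counting error only.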

Additional observations from a re-analysis of the deposited data

How the results depend on the processing

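Of 30 comparisons of a tested difference with an alternative, 23 kept direction and side of the threshold. For the central share, replicate 1 gave -21.1 points with a wider central section of 50% of the extent and -25.1 at or above the median score, and neither passed. The combined list gave -12.7 points at or above the median score, -5.54 with runs counted once and -7.89 without its 13-peak run, and none passed. Replicate 2, which did not pass in any setting, turned to 0.226 points at or above the median score. The replicate 1 share overlapping replicate 2 turned to 3.52 points with runs counted once, also without passing. No other sharing value changed side or direction. The share of peaks in dense runs also moved at or above the median score. It was then 10.0% of 20 replicate 1 peaks, 42.4% of 66 replicate 2 peaks and 30.0% of 60 combined peaks. With gaps of at most 1 kb it moved to 41.4% in replicate 2. Median width moved to 713.5 bp at or above the median score in replicate 2, and among peaks that overlap another list to 547 bp there and 287 bp in the combined list. The cause of the changes in the central share, in dense runs and in width was not tested. Each list gives its own value, so leaving out a replicate means reading the other list. No paired analysis was possible because the input libraries were not analysed here. Depth per library is unknown.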

Other observations

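The ends of chromosome II carried replicate 2 peaks that replicate 1 lacked. Replicate 2 peaks began within the first 4 bases of every nuclear chromosome, so the left-end peak is not peculiar to chromosome II. On the right, replicate 1 also stopped short of replicate 2 on chromosomes I (14889721 and 15071349), III (13595391 and 13750440), IV (17087767 and 17492985) and X (17446375 and 17690965). On chromosome V the last peaks of the replicates ended close together, at 20839692 and 20839783. At the left end, replicate 2 had a 445 bp peak from base 1 with a score of 275.87, and the nearest combined peak was the outermost of its list, 431448 to 431593 (2.76). Towards the right end, replicate 2 had a run of 4 peaks between 15138460 and 15140244 (scores 59.28 to 119.99), and the combined list had 3 peaks there with scores of 4.88 to 6.12. The outermost combined peak on the right, 15191499 to 15191652 (4.83), overlapped no replicate peak. The outermost replicate 1 peaks stood further in, at 694838 and 14019597.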
